A study of Mus musculus with 26 samples.

Results

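The spinal interneuron transcription factors described here are 9 genes, Pax2, En1, Evx1, Gata2, Gata3, Sim1, Lhx1, Lhx5 and Tal1, taken by symbol from the 56941 genes of the deposited tables. All 9 were found in the count table and in the table of TPM (transcripts per 1000000, a level scaled by gene length). Their Ensembl identifiers are ENSMUSG00000004231 (Pax2), ENSMUSG00000058665 (En1), ENSMUSG00000005503 (Evx1), ENSMUSG00000015053 (Gata2), ENSMUSG00000015619 (Gata3), ENSMUSG00000019913 (Sim1), ENSMUSG00000018698 (Lhx1), ENSMUSG00000029595 (Lhx5) and ENSMUSG00000028717 (Tal1). All were present at low levels in the motor neuron spheroids, En1 and Pax2 highest and Evx1 and Sim1 lowest. In 6 comparisons between treatments, 0 of the 8 members with enough counts for the test passed its threshold in either direction. Evx1 had too few counts for that test. Few genes passed at all, per comparison 0 to 0.0402% of those tested with all libraries and 0 to 0.713% without the shallow libraries.

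The ventral spinal cord forms its interneurons in stacked domains beside the motor neurons, and each domain is recognised by the transcription factors that its young neurons turn on. Evx1 marks ventral commissural V0 neurons, En1 marks inhibitory V1 neurons, Gata2, Gata3 and Tal1 mark inhibitory V2b neurons, and Sim1 marks excitatory V3 neurons. Pax2, a paired-domain factor, and the LIM-homeodomain factors Lhx1 and Lhx5 are shared by several inhibitory classes, where they maintain the GABA and glycine transmitter type. Sonic hedgehog, whose signal purmorphamine mimics, sets these domains along the ventral side, while retinoic acid gives the cells their spinal position.

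The libraries came from spheroids of HBG3, a mouse embryonic stem cell line with a GFP reporter driven by the promoter of HB9 (Mnx1, a motor neuron factor). Its genotype label reads heterozygous blastocysts, and it was expanded on feeder cells and then differentiated with retinoic acid and purmorphamine. Ciliary and glial neurotrophic factors (CNTF and GDNF) were added in all groups after 5 days, and the spheroids were placed on a fibrin platform at about day 8. The actuated group (n = 4) was cultured on a magnet-bearing silicone array driven at 4 Hz for 30 min a day, and the static-array group (n = 4) sat on an array that was never moved. The high-intensity (n = 6) and low-intensity (n = 6) groups are assumed to have received muscle-conditioned medium, and the controls (n = 6) neither that medium nor an array. Which intensity label corresponds to stimulated muscle is not stated in the labels, so these groups are named by intensity only. No label says that the samples of a group were separate cultures, so the p-values measure only the spread between samples, which may be technical. The series addressed how the mechanical and the biochemical effects of muscle activity on motor neurons differ.

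Depth limits every value of these genes. Total counts were 7269276 to 9839951 in the actuated libraries and 613344 to 13162635 in the static-array libraries. The corresponding ranges were 243510 to 3971348 at high intensity, 1536 to 3602716 at low intensity and 1457250 to 3771637 in the controls. The 9 genes together held 0 to 597 counts in a library. In 5 libraries protein-coding genes held fewer than 1000000 counts, namely control 4 (80.2% of its counts on rRNA), low intensity 6, high intensity 4 and 5, and static array 3. The other 21 are called the deeper libraries, and results are given with and without the 5 shallow ones. A count of 0 allowed up to 0.228 to 1.93 counts per 1000000 total counts (CPM) in the deeper libraries, as the value of 3 counts. These limits cover counting error only. Counts on rRNA are part of the CPM total and were 17.6 to 22.4% of it in the deeper controls. They were 7.91 to 15.0% in the deeper actuated, static-array and low-intensity libraries and 10.6 to 19.6% at high intensity. EdgeR's fold changes use a scaling factor per library (TMM), which CPM leaves out. In the fit of all 26 libraries it was 0.765 to 0.858 in the deeper controls and 0.845 to 0.964 in the other deeper libraries. CPM of most controls therefore reads low against the scale of that fit. Among the shallow libraries this factor ran from 0.233 (control 4) to 36.7 (low intensity 6, with 1536 counts). The fit of the deeper libraries computed factors of its own, which are not given here.

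Sequence near the start sites was available for 8 of the 9 members, as 12 windows of 250 bases before a start (RefSeq, GRCm38.p6), with Lhx5 missing from the table used. The windows were searched on both strands for the letters AGATAA or, with a last G, AGATAG, and for TGATAA or, likewise, TGATAG, which GATA factors recognise. These letters were in 1 of the 12 member windows and in 26.5% of all 32851 windows of this length. The 1 window with a match belongs to Tal1, a factor that acts in complexes with GATA proteins, and is shown for that reason with the match in capitals, on the plus strand at chr4:115056176-115056425, 205 bases before the start at its first base.
Tal1: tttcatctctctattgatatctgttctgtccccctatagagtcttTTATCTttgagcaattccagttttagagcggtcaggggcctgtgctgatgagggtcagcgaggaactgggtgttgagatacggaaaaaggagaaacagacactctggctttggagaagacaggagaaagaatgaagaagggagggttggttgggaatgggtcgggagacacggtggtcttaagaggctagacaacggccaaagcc
The letters TAATTA, the core that LIM-homeodomain factors such as Lhx1 and Lhx5 recognise, were in 0 of the 12 windows and in 4.84% of all. The letters CAGATG, an E-box form bound by Tal1 with its E-protein partners, were in 1 of the 12 windows, that of Sim1 (at 214 and 53 bases before its start), and in 14.4% of all. These matches describe the letters of the windows only.

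Levels per length were compared on the TPM scale in the deeper libraries. En1 was highest with a median of 5.15 TPM (lowest 1.23, highest 10.1), followed by Pax2 at 3.35 (1.55 to 8.83) and Lhx1 at 2.42 (0.633 to 11.5). The V2b factors lay close together, Gata3 at 1.89, Gata2 at 1.85 and Tal1 at 1.78 TPM, and Lhx5 followed at 1.47. Evx1 (0.489) and Sim1 (0.434) were lowest. Among protein-coding genes with any TPM, these medians ranged from percentile 33.9 for En1 down to percentile 7.80 for Sim1. En1 exceeded Pax2 in 17 of 21 libraries, Pax2 exceeded Lhx1 in 15, and Lhx5 exceeded Evx1 in 19. The other neighbours in the order changed places from library to library. Lhx1 was above Gata3 in 9 of 21 libraries, Gata3 above Gata2 in 14, Gata2 above Tal1 in 8, Tal1 above Lhx5 in 14 and Evx1 above Sim1 in 11. The order from Lhx1 to Lhx5 and that of Evx1 and Sim1 are therefore not distinguished beyond the spread of the libraries.

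**Figure D1:**
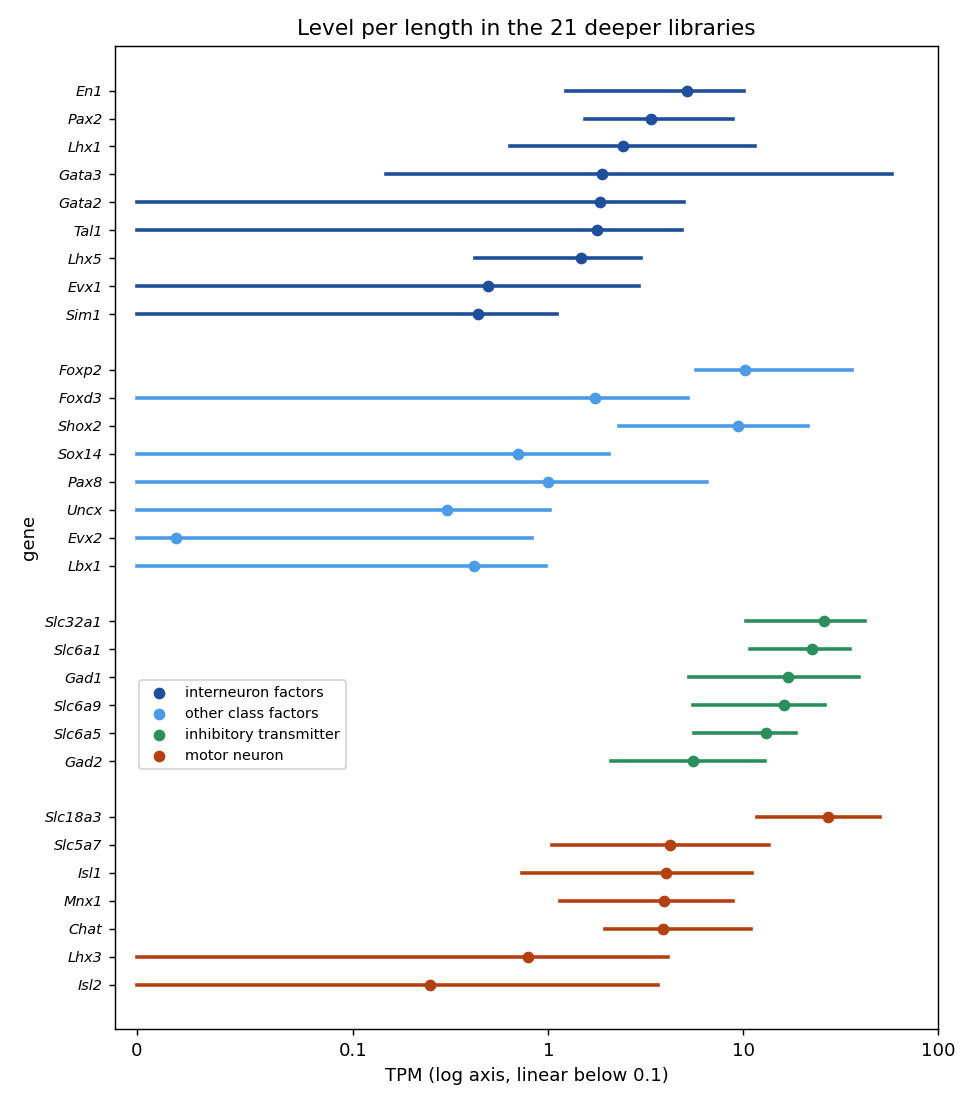
Level per length of the 9 interneuron factors and of related genes in the 21 deeper libraries. Each dot is a median TPM and each line runs from the lowest to the highest library, on a log axis that is linear below 0.1. En1 heads the 9 factors at 5.15 TPM, the inhibitory transmitter genes lie between 5.52 and 26.05 TPM, and the lines of Gata2, Tal1, Evx1 and Sim1 reach 0.

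Other factors of the same classes ranged from absent to above the members. For V0, Evx2, the neighbour and paralog of Evx1, had a median of 0.018 TPM, and the p0 progenitor factor Dbx1 was at 0. For V1, Foxd3 had 1.74 and Foxp2 10.2 TPM, and for V2b's sister class V2a, Sox14 had 0.695 and Shox2 9.45 TPM. The V2 progenitor factor Foxn4 was at 0, and for V3 Uncx had 0.302 and Nkx2-2 2.15 TPM. The dorsal interneuron factors Ptf1a and Lbx1 had 0 and 0.416 TPM. Of 42 listed other spinal interneuron factors, 20 had a median above 1 TPM and 5 a median of 0. For the 9 members, 7 were above 1 TPM and 0 at 0.

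The transmitter genes that these inhibitory classes use were present in all deeper libraries. The GABA-synthesis enzymes Gad1 and Gad2 had medians of 16.9 and 5.52 TPM, the vesicular GABA and glycine transporter Slc32a1 had 26.05 and the glycine transporter Slc6a5 had 13.1. Slc17a6, the vesicular glutamate transporter of V3 and other excitatory neurons, had 26.6 TPM. The motor neuron genes Mnx1, Isl1 and Chat had 3.92, 4.03 and 3.87 TPM, below these transmitter genes, and Slc18a3, which lies inside an intron of Chat, had 27.1. Of 11 listed motor neuron genes, 8 had a median above 1 TPM, and the list ran from Prph at 360 to Isl2 at 0.246 TPM. The 9 factors also serve other tissues, so the defining genes of those tissues were examined. Of 13 blood and endothelial genes (Gata2, Gata3 and Tal1 act there), 8 had a median of 0 TPM, among them Gata1, Klf1 and the globins, while Kdr (1.14), Cdh5 (1.16) and Runx1 (5.17) did not. Of 6 kidney and intermediate mesoderm genes (Pax2 and Lhx1 act there), 2 were at 0, namely Wnt9b and Cdh16. Pax8 had 0.992 TPM and Calb1 4.26. Of 6 midbrain and hindbrain boundary genes (Pax2 and En1 act there), Otx2, Fgf8, Fgf17 and Wnt1 were at 0, while En2 had 0.838 and Pax5 1.08 TPM. In bulk libraries, fewer cells of a class and less RNA per cell cannot be told apart, and whether any of these genes share a cell is not measured.

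The summed level of the 9 genes overlapped between all groups. Summed over the members, the deeper libraries held 49.7 ± 6.30 CPM in the controls (mean ± SD, n = 5), 51.8 ± 8.98 at low intensity (n = 5) and 54.5 ± 4.23 at high intensity (n = 4). The sums were 50.6 ± 8.19 on the static array (n = 3) and 49.1 ± 7.79 on the actuated array (n = 4). The lowest sum was 41.9 CPM at low intensity and the highest 60.6, also at low intensity. The order of the group means holds for CPM, which leaves out the TMM factor.

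**Figure D2:**
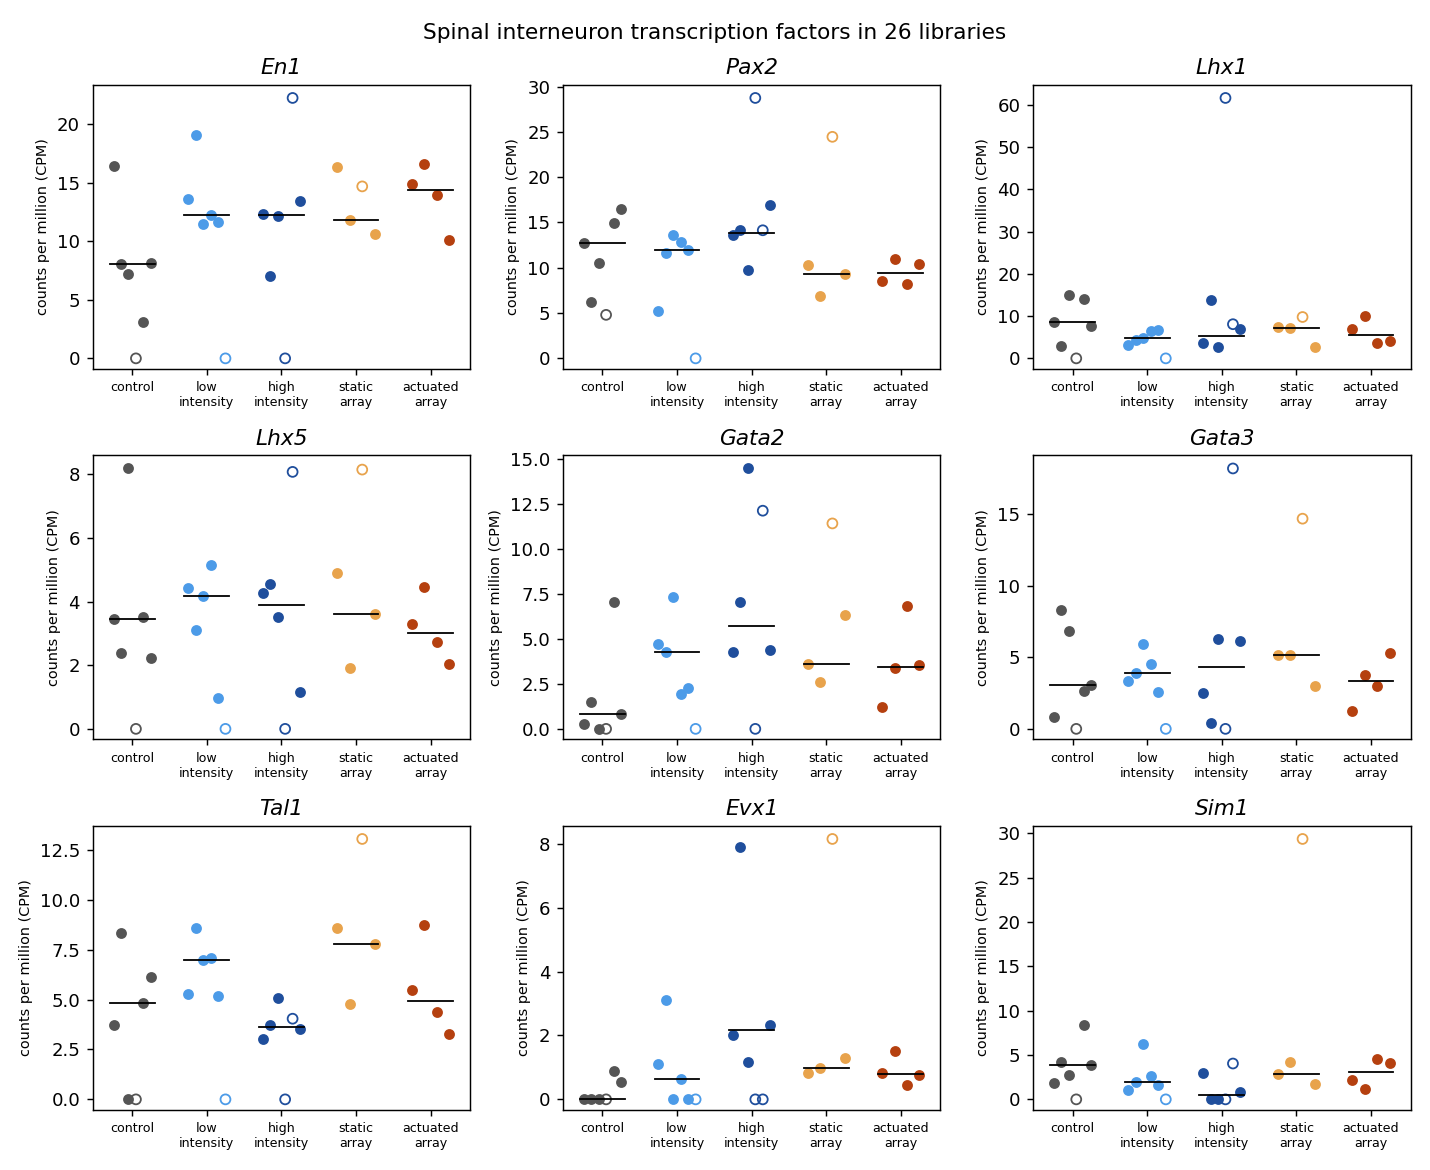
CPM (linear axes) of each of the 9 factors in all 26 libraries, by group. Filled points are deeper libraries, open points the 5 shallow ones, and the bar is the median of the deeper libraries. Most groups overlap, and many of the extreme values, such as 61.6 CPM for Lhx1 at high intensity and 29.3 CPM for Sim1 on the static array, are open points.

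Differences between groups were tested with edgeR's quasi-likelihood test over all genes with enough counts, and a gene was called at a Benjamini-Hochberg adjusted p under 0.05. Of the 9 members, 8 had enough counts for the fit and Evx1 did not. The fit covered 14907 genes in all 26 libraries and 14730 in the deeper ones. On the actuated against the static array, 0 of 8 members were called, where 0% of all genes were, and 0 of 8 had an unadjusted p under 0.05, where 3.86% of all genes did. In the deeper libraries the same counts were 0 of 8 against backgrounds of 0% and 0.380%. The log2 fold changes had a median of -0.48 over the members (1 higher, 7 lower) and of -0.02 over all genes. With static array 3 alone left out, the members' median became -0.05 (4 higher, 4 lower), as it also was in the deeper libraries.

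Between high intensity and control, 0 of 8 members were called (0.0402% of all genes) and 1, Gata2, had an unadjusted p under 0.05 (7.04% of all genes). In the deeper libraries 0 of 8 were called (0.462% of all genes) and 2, Gata2 and Sim1, had an unadjusted p under 0.05 (15.9%). The members' median was 0.13 with 5 of 8 higher in all libraries, and -0.36 with 3 of 8 higher in the deeper ones. Between low intensity and control, 0 of 8 were called (0.0268%, and 0.597% in the deeper libraries). Unadjusted, 0 of 8 passed (5.23%) and, in the deeper libraries, 1 did, Lhx1 (15.2%). High against low intensity gave 0 of 8 called and 0 of 8 at an unadjusted p under 0.05, beside 0% and 2.91% of all genes. The deeper libraries gave 0 of 8 for both, beside 0% and 7.68%.

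Static array against control, which differ in the array and in the arm of the study, gave 0 of 8 called (0.0134%) and 0 of 8 unadjusted (5.27%). In the deeper libraries it gave 0 of 8 called (0.713%) and 0 of 8 unadjusted (12.6%). Depth moved with this comparison, since the deeper static-array libraries held 7724923 to 13162635 counts and the deeper control libraries 2273487 to 3771637. Glia genes also moved with it: all 9 listed had positive log2 fold changes in the deeper libraries (median 0.92), 8 with an unadjusted p under 0.05 and 0 called by edgeR, and their sums of 3818 to 4869 CPM on the static array lay above the 2139 to 2768 CPM of the controls. In CPM, sums of the 10 neuron genes did not overlap either, at 10244 to 13074 and 8828 to 10123, while the median of their log2 fold changes was -0.03. These fold changes use a TMM factor, which the CPM sums leave out. In the fit of all 26 libraries it was 0.904 to 0.938 in the deeper static-array libraries and 0.765 to 0.858 in the deeper controls. The fit of the deeper libraries, which gave the median of -0.03, used factors of its own that are not given here. The gap between the neuron sums is therefore a statement about CPM only. The part of depth and of these cells in the comparison was not tested. The members' median log2 fold change was 0.52 in all libraries, with all genes at 0.09, and -0.29 in the deeper libraries, with all genes at 0.00. The difference between the actuation difference and the high-intensity difference, an interaction term, was called for 0 of 8 members (0%). It had an unadjusted p under 0.05 for 1, Gata2 (6.57%), and in the deeper libraries for 0 of 8 (6.69%), with 0% of genes called. No comparison had more than 2 of 8 members at an unadjusted p under 0.05.

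**Figure D3:**
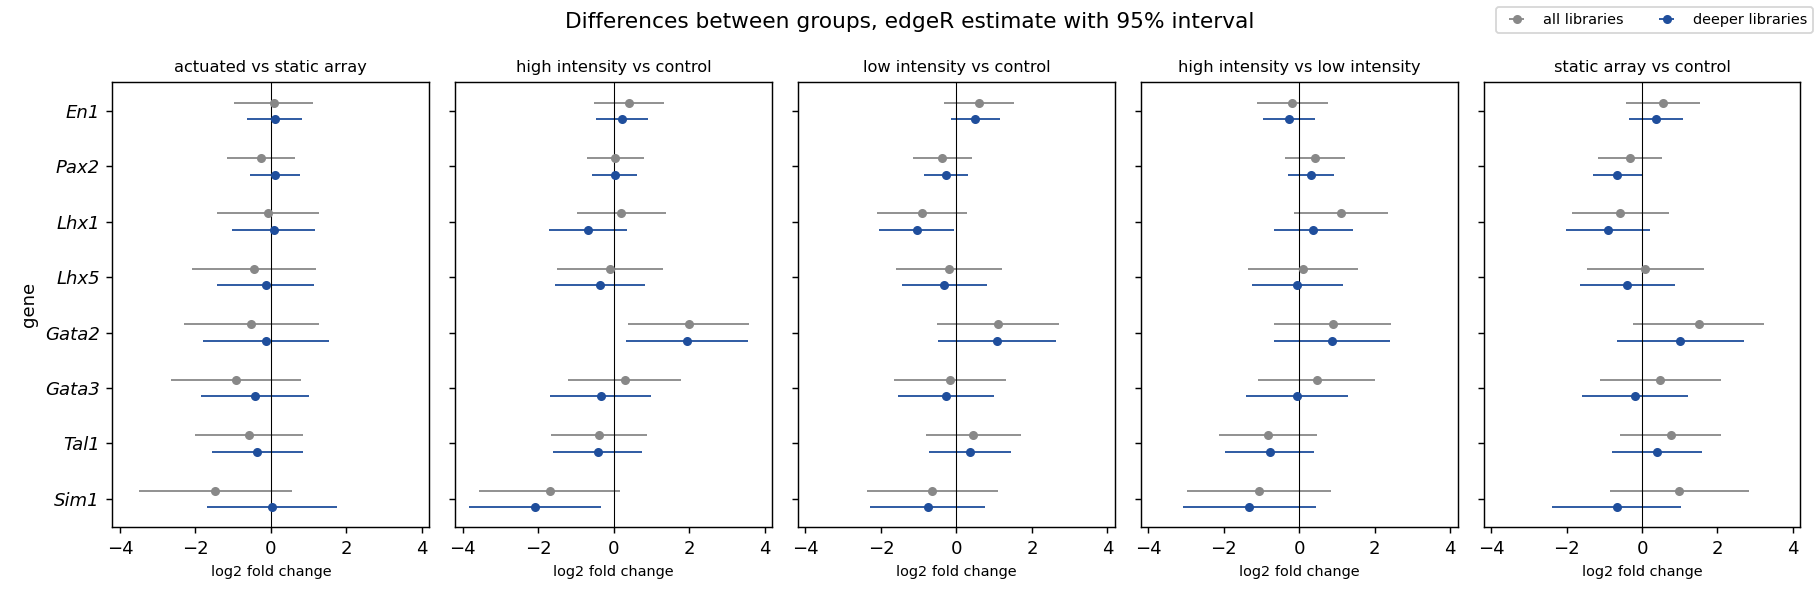
Log2 fold changes of 8 factors in 5 comparisons, as edgeR estimates with 95% intervals, from all 26 libraries (grey) and from the 21 deeper libraries (blue). Nearly all intervals include 0, the exceptions being Gata2 in high intensity against control (both fits), Sim1 there and Lhx1 in low intensity against control (deeper libraries).

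En1, the homeobox factor that defines V1 neurons, was measured in every deeper library. The controls had 16.4, 8.04, 7.16, 3.08 and 8.10 CPM in libraries 1, 2, 3, 5 and 6. Low intensity had 13.6, 19.1, 11.5, 12.2 and 11.6 CPM and high intensity 12.3, 7.06, 12.1 and 13.5. The static array had 16.3, 11.8 and 10.6 CPM and the actuated array 14.9, 16.6, 13.9 and 10.1. Of the 5 control libraries, 4 lay below every low-intensity, static-array and actuated library, while control 1 lay within their range, so the groups overlapped. The log2 fold change to control in the deeper libraries was 0.50 (SE 0.32) at low intensity, 0.23 (SE 0.33) at high intensity and 0.37 (SE 0.35) on the static array. Each 95% interval included 0, the upper bounds being 1.15, 0.92 and 1.09. Actuated and static arrays differed by 0.10 with an interval from -0.62 to 0.83.

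Pax2, which sits upstream of the GABA programme in inhibitory neurons, had the smallest spread of the 9, an SD of 28.5% of its mean over the 21 deeper libraries. In the deeper libraries it had 12.2 ± 4.01 CPM in the controls (SD, n = 5), 11.1 ± 3.33 at low intensity (n = 5) and 13.6 ± 2.96 at high intensity (n = 4). It had 8.81 ± 1.77 CPM on the static array (n = 3) and 9.53 ± 1.36 on the actuated array (n = 4). In CPM, the static-array values of 10.3, 6.84 and 9.32 lay within the control range of 6.25 to 16.5. In the fit of all 26 libraries the TMM factor was 0.765 for control 2, the lowest control, and 0.904 for static array 2. On the scale of that fit this inclusion may therefore not hold. Against control the static array differed by -0.65 (SE 0.32, interval -1.30 to 0.0017, unadjusted p = 0.0505, edgeR adjusted p = 0.400). The shallow static array 3 had 24.5 CPM from 15 counts, and with it the difference was -0.32 (SE 0.42). Limma-voom with quality weights on all libraries gave -0.82 (unadjusted p = 0.00119, adjusted p = 0.109).

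Lhx1, a LIM-homeodomain factor of V0, V1 and V2b neurons and of dorsal inhibitory neurons, was spread widely within groups. The deeper controls had 8.48, 2.98, 15.0, 14.1 and 7.54 CPM, and low intensity had 3.05, 4.28, 4.88, 6.45 and 6.79 CPM. In CPM, without the TMM factor, all 5 low-intensity values lay below 4 of the 5 control values, and control 2 lay below all 5. The log2 fold change was -1.05 (SE 0.48, interval -2.04 to -0.06, unadjusted p = 0.0393, edgeR adjusted p = 0.296) in the deeper libraries and -0.91 (SE 0.59) in all. High intensity had 3.53, 13.7, 2.74 and 7.03 CPM in its deeper libraries and 61.6 and 8.08 CPM in the shallow libraries 4 and 5. The value of 61.6 CPM rests on 15 counts in a library of 243510. Against control, high intensity differed by 0.21 (SE 0.58) with all libraries and by -0.45 without high intensity 4. The static array had 7.52, 7.07 and 2.72 CPM and the actuated array 6.88, 9.96, 3.73 and 4.06 CPM, overlapping each other and the controls.

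Lhx5, the paralog of Lhx1 with which it acts in inhibitory neurons, ranged from 0.970 to 8.19 CPM in the deeper libraries, both ends coming from single libraries (low intensity 5 and control 3). Group means lay between 3.14 ± 1.03 CPM on the actuated array (SD, n = 4) and 3.95 ± 2.44 in the controls (n = 5). The log2 fold changes of Lhx5 in the 5 comparisons between groups were between -0.39 and -0.05 in the deeper libraries, with standard errors of 0.55 to 0.62. Across the 21 deeper libraries Lhx1 and Lhx5 had a Pearson correlation of 0.22 on log2 CPM, given as a description of libraries that share depth and group.

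Gata2, which starts the V2b programme and is also used in blood formation, had the largest log2 fold change of the 8 members fitted with all libraries. Its counts in control libraries 1 to 6 were 1, 5, 0, 0, 16 and 3, or 0.265, 1.49, 0, 7.04 and 0.838 CPM in the 5 deeper ones. The 0 of control 3 allowed up to 1.02 CPM. High intensity had 4.28, 7.06, 14.5 and 4.39 CPM in deeper libraries, and 0 and 12.1 CPM (0 and 6 counts) in the shallow libraries 4 and 5. Low intensity had 4.72, 4.28, 7.32, 1.93 and 2.26 CPM, the static array 3.58, 2.58 and 6.34, and the actuated array 1.24, 3.35, 6.80 and 3.55 CPM. Control libraries 1, 2, 3 and 6 lay below all deeper libraries of the intensity groups and the static array, and control 5 lay within their range. High intensity exceeded control by a log2 fold change of 1.99 (SE 0.79, interval 0.38 to 3.60, unadjusted p = 0.0165, edgeR adjusted p = 0.505). The deeper libraries gave 1.94 (SE 0.78, edgeR adjusted p = 0.217), and leaving out control 5 gave 3.38 (edgeR adjusted p = 0.173). Against control the difference was 1.10 (SE 0.80) at low intensity and 1.498 (SE 0.853) on the static array, and without control 5 these were 2.49 and 2.89 (edgeR adjusted p = 0.568 and 0.4997). Actuated minus static was -0.51 (SE 0.88). Its interaction term was -2.50 (SE 1.19, unadjusted p = 0.0413, edgeR adjusted p = 0.698), and -2.06 (SE 1.12) in the deeper libraries. Without control 5 it was -3.90 (edgeR adjusted p = 0.174).

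Markers of other cell types were summed beside this comparison. The 8 fibroblast and mesenchyme genes, 7 of them with a median above 1 TPM, did not overlap between the groups, at 1011 to 2482 CPM in the deeper high-intensity libraries and 372 to 798 CPM in the deeper controls. The other sums overlapped. Muscle genes were at 19.9 to 176 against 8.87 to 64.7 CPM, and neuron genes at 5955 to 10265 against 8828 to 10123 CPM. The 13 blood and endothelial genes summed to 35.3 to 81.1 CPM at high intensity and 11.3 to 39.6 CPM in the controls, with the red-cell factor Gata1 at a median of 0 TPM in both groups and Klf1 at 0.285 TPM at high intensity and 0 in the controls. The part of these genes' cells in the values of Gata2 was not tested.

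Gata3, which follows Gata2 in V2b neurons and maintains their identity, did not show the Gata2 order of groups. Its deeper control values were 0.795, 8.33, 6.82, 2.64 and 3.07 CPM, and its high-intensity values were 2.52, 0.415, 6.26 and 6.15 CPM. The log2 fold change to control was -0.34 (SE 0.65) in the deeper libraries and 0.30 (SE 0.74) in all, where the shallow high intensity 5 had 18.2 CPM from 9 counts. Low intensity had 4.05 ± 1.26 CPM (SD, n = 5), the static array 4.42 ± 1.25 (n = 3) and the actuated array 3.32 ± 1.70 (n = 4). All of these overlapped. Gata2 and Gata3 had a Pearson correlation of 0.02 across the 21 deeper libraries.

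The deposited TPM values of Gata3 did not run parallel to its counts. Low intensity 3 was listed at 58.0 TPM with 17 counts and control 3 at 31.9 TPM with 20 counts, while control 2 had 4.16 TPM with 28 counts. Among libraries with at least 5 counts, TPM per CPM of Gata3 ran from 0.274 in control 6 to 9.80 in low intensity 3, a 35.7-fold range. The same range was between 2.33-fold and 6.76-fold for the other 8 members. Of 8 members with values in every group, 7 had their lowest median TPM per CPM in the controls, En1 for example 0.342 in the controls and 0.417 to 0.510 in the other groups. Group differences on the TPM scale can therefore differ from those on the count scale. For En1 in all 26 libraries, the static array exceeded control by 1.23 on the log2(TPM + 1) scale (limma adjusted p = 0.524). On the count scale of edgeR it did so by 0.56 (SE 0.49). These 2 values come from unlike models and include the shallow libraries, among them control 4 with 0 counts of En1. The part of the TPM per CPM ratios in their gap was not tested.

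**Figure D4:**
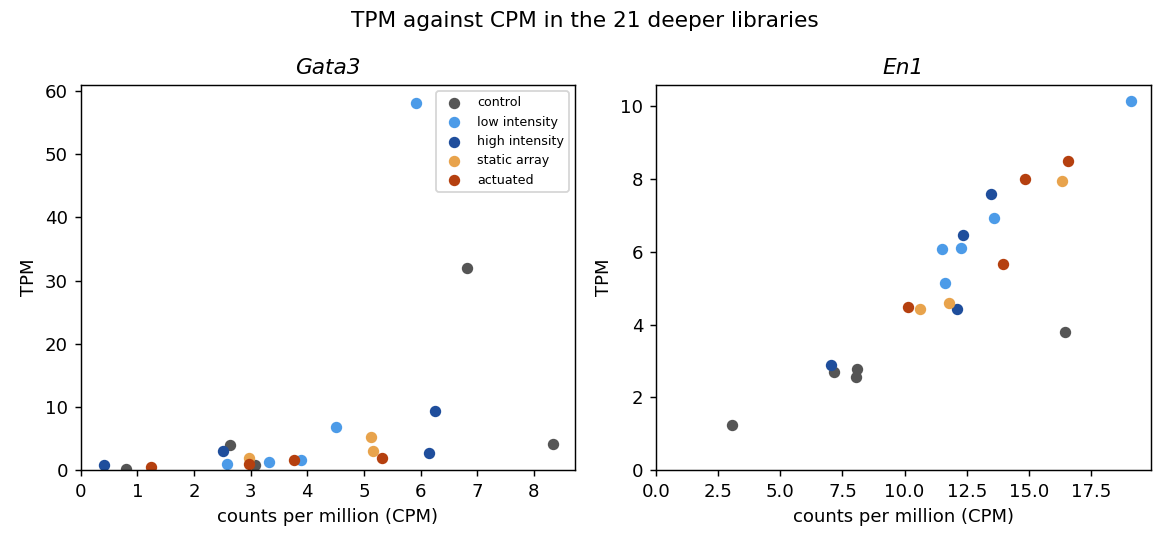
TPM against CPM (both linear) of Gata3 and En1 in the 21 deeper libraries, coloured by group. For En1 the controls had 0.231 to 0.399 TPM per CPM, lowest in control 1 (16.4 CPM, 3.80 TPM). The other groups had 0.365 to 0.564. For Gata3 the points at 58.0 and 31.9 TPM stand above all others.

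Tal1, a basic helix-loop-helix factor that acts with Gata2 and Lmo4 in V2b neurons, had lower CPM at high than at low intensity in the deeper libraries, by a narrow margin. High intensity had 3.02, 3.74, 5.08 and 3.51 CPM in its deeper libraries, and low intensity had 5.27, 8.57, 6.97, 7.09 and 5.17 CPM. The 2 groups did not overlap in CPM. The closest values were 5.08 CPM (high intensity 3, 13 counts) and 5.17 CPM (low intensity 5, 16 counts). In the fit of all 26 libraries the TMM factor was 0.845 for high intensity 3 and 0.898 for low intensity 1 (5.27 CPM). On the scale of that fit this separation may not hold. Separation in CPM was found for 1.36% of all genes with a count there, and Tal1 was the 1 member of 9 in that comparison. By edgeR the log2 fold change was -0.78 (SE 0.57, interval -1.96 to 0.40) in the deeper libraries and -0.84 (SE 0.64) in all, so the difference was not beyond the modelled spread. The controls spanned both groups with 3.71, 8.33, 0, 4.84 and 6.15 CPM, where the 0 of control 3 allowed up to 1.02 CPM. The static array had 8.59, 4.79 and 7.77 CPM and the actuated array 5.50, 8.74, 4.39 and 3.29 CPM, with a difference of -0.36 (SE 0.59). Tal1 correlated with Gata2 at a Pearson r of 0.48 and with Gata3 at -0.07 across the 21 deeper libraries, as a description.

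Of 16 listed partners of the V2b and LIM factors, 11 had a median level per length above that of En1, the highest of the 9 members, and 3 (Lyl1, Nhlh1 and Tal2) lay below all 9. Ldb1, which bridges LIM-domain proteins into complexes, had a median of 45.6 TPM, the LIM-only proteins Lmo4 and Lmo2 had 45.4 and 8.22, and the E-protein Tcf3 had 32.1. The GATA cofactor Zfpm1 (FOG-1) had 7.88 TPM. Of the 16 partners, 13 had enough counts and 0 were called in any of the 6 comparisons, in all or in the deeper libraries. Lmo4 had the smallest adjusted p of the list, at low intensity against control in the deeper libraries (log2 fold change 0.52, SE 0.14, unadjusted p = 0.00130, edgeR adjusted p = 0.0734).

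Evx1, which directs the V0 class, was at the edge of detection. It held 121 counts over all 26 libraries. The low-count filter, which asks for a minimum CPM in enough libraries, left it out of the fit. Among the deeper controls, libraries 1, 2 and 3 had 0 counts (allowing up to 0.795, 0.893 and 1.02 CPM) and libraries 5 and 6 had 2 counts each (0.880 and 0.559 CPM). High intensity had 2.01, 7.89, 1.17 and 2.34 CPM from 8, 19, 3 and 8 counts in its deeper libraries, and 0 counts in both shallow ones, which allowed up to 12.3 and 6.06 CPM. Low intensity had 1.11, 3.12, 0, 0.645 and 0 CPM, the static array 0.835, 0.988 and 1.29, and the actuated array 0.825, 1.52, 0.439 and 0.760 CPM. High intensity did not overlap the controls in the deeper libraries, which held for 2.49% of all genes with a count there, and Evx1 was the 1 member of 9 for which it did. For the other comparisons the members without overlap were 0 of 9 for actuated against static array (3.28% of genes), 0 of 9 for low intensity against control (1.51%) and 0 of 9 for static array against control (7.15%).

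The mean of Evx1 at high intensity was 3.35 ± 3.06 CPM (SD, n = 4) and in the controls 0.288 ± 0.410 CPM (n = 5) in the deeper libraries. A two-sided exact permutation test of the means, chosen after the values were seen, gave p = 0.0159, the smallest possible for this split, and 0.0794 after adjustment over 5 comparisons. With all libraries the exact permutation p was 0.0736 (adjusted 0.184). For the static array against control the exact permutation p was 0.0190 with all libraries (adjusted 0.0952) and 0.0714 in the deeper ones (adjusted 0.179). In the deeper libraries 1 separated comparison could not pass the threshold after adjustment over 5, so the adjusted values there do not bear on whether Evx1 differed. EdgeR without a low-count filter gave 2.99 (SE 1.43, unadjusted p = 0.0362, adjusted p = 0.434) for high intensity against control. Evx1os, an antisense gene that overlaps Evx1 in GENCODE M21, held 65 counts in 15 libraries. Whether the counting used strand is not given in the sources used here, and reads of both genes may be mixed.

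Sim1, the basic helix-loop-helix and PAS factor of V3 neurons, was lowest at high intensity among the deeper libraries. The deeper high-intensity libraries had 3.02, 0, 0 and 0.878 CPM from 12, 0, 0 and 3 counts, the zeros allowing up to 1.25 and 1.17 CPM. The deeper controls had 1.86, 4.17, 2.73, 8.36 and 3.91 CPM, and low intensity had 1.11, 1.95, 6.27, 2.58 and 1.62 CPM. High intensity 1 lay within the control range and the other 3 deeper high-intensity libraries lay below it. The log2 fold change was -2.08 (SE 0.85, interval -3.83 to -0.34, unadjusted p = 0.0213, edgeR adjusted p = 0.220) in the deeper libraries. With all libraries it was -1.70 (SE 0.92, unadjusted p = 0.0736, edgeR adjusted p = 0.749).
Sim1 had 2.86, 4.25 and 1.68 CPM in the deeper static-array libraries and 2.20, 1.12, 4.50 and 4.06 CPM in the actuated ones. The shallow static array 3 had 29.3 CPM from 18 counts. Actuated minus static was -1.47 (SE 1.00) with that library and 0.02 (SE 0.84) in the deeper libraries, and static array minus control was 0.99 (SE 0.91) and -0.67 (SE 0.83).

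Among related factors, transmitter genes and motor neuron genes, 1 gene was called, in 1 comparison. Of 10 general neuron genes given beside them, 1 was called, lower at low intensity than in the controls in the deeper libraries. Of 42 other spinal interneuron factors, 27 had enough counts, and 0 were called in any of the 6 comparisons with either set of libraries. Their median log2 fold change at high intensity against control was 0.04 in all libraries and -0.05 in the deeper ones, with all genes at -0.05 and 0.00. Of 22 ventral progenitor factors, 13 were tested and 0 called. All 6 inhibitory transmitter genes had negative log2 fold changes at high intensity against control and against low intensity, and 0 of 6 were called. Their median was -0.32 in the deeper libraries against control. The 10 general neuron genes had a median of -0.31 there, 10 of 10 negative, 6 with an unadjusted p under 0.05 and 0 called by edgeR. The 8 fibroblast genes had a median of 1.11, with 8 of 8 positive. The part of these cells in the inhibitory values was not tested. Slc6a5 differed there by -0.43 (SE 0.16, edgeR adjusted p = 0.177) and Slc32a1 by -0.34 (SE 0.16, edgeR adjusted p = 0.299). Of the motor neuron genes, 1 of 10 tested was called in the deeper libraries, the choline transporter Slc5a7, which was lower on the static array than in the controls (log2 fold change -1.88, SE 0.31, edgeR adjusted p = 0.00392). With all 26 libraries it was -1.42 (SE 0.51, unadjusted p = 0.00871, edgeR adjusted p = 0.590). It is the comparison in which the glia sums did not overlap.

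Pairs of members were mostly weakly correlated from library to library. Over the 28 pairs of 8 members in the 21 deeper libraries, Pearson correlations of log2 CPM ran from -0.47 to 0.50 with a median of -0.09, and 18 of 28 were negative. The genes whose pattern was most like that of a member were taken from 11766 genes with a mean of at least 5 CPM over these libraries, for the 4 members above that mean. For Pax2 they were Zfp109 (r = 0.82), the axon guidance ligand Slit2 (0.81) and Ate1 (0.79), and for En1 Relb (0.80), Smg5 (0.80) and Sec61a1 (0.79). Disp2 (0.84), Klhl12 (0.81) and Usp54 (0.80) were nearest to Lhx1, and Zfp1 (0.90), Impa2 (0.88) and Zfp677 (0.88) to Tal1. These are the highest of 11766 values each over 21 points that share depth and group, and are given as a description with no test.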

How the data were processed

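Total RNA from 26 spheroid samples was sequenced after rRNA-fragment cleavage, with 4 ng input except for the 8 lowest samples. The values deposited by the authors are whole-number estimated counts, not scaled for depth, and TPM that sum to 1000000 per library. Per the submitters' processing notes, STAR, Salmon, BWA 0.7.12-r1039 and bedtools 2.25.0 were used with mm10, hg19 and GRCm39. Which made these tables, and whether strand was used, is not given in the sources used here. Gene overlaps came from GENCODE M21 by identifier.

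Rounded counts were tested with edgeR 4.0.16 (R 4.3.3): filterByExpr, TMM, 1 coefficient per group over all 26 libraries, quasi-likelihood F-test, Benjamini-Hochberg adjustment over all genes fitted, threshold 0.05. SE and 95% intervals belong to that fit. CPM is per 1000000 total counts. The alternatives were DESeq2 1.42.0 (size factors, Wald test), limma 3.58.1 (voom, or log2(TPM + 1) and log2(TPM + 0.1) of the deposited TPM), no filter, only the groups compared, the deeper libraries, a replicate block and leaving out each library. The procedure was tested on simulated data. All 9 members are named. Listed genes are named where they share a member's class or define inhibitory or motor neurons, and the 3 most similar genes where a member's mean is at least 5 CPM. Members and lists were chosen with earlier results of these data known. Some genes of these lists are not reported here and were left out of the counts.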

Additional observations from a re-analysis of the deposited data

Results flagged for a closer look

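Each group of a member's CPM values was examined for a single library far from the others of its group, by the gap to its nearest neighbour over the whole range (Dixon's 95% limit). Of 45 groups, 7 held such a library. The limit flags about 1 in 20 groups by chance only for normal values of equal precision. CPM from few counts in libraries of unlike depth are not such values, so 7 of 45 cannot be read as an excess.

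Evx1 was at 3.12 CPM (8 counts) in low intensity 2, where the other libraries of the group had at most 1.11. It was at 7.89 CPM (19 counts) in high intensity 2, where the others had at most 2.34, and at 8.15 CPM (5 counts) in static array 3, where the others had 0.835 to 1.29. Gata2 was at 7.04 CPM (16 counts) in control 5 and between 0 and 1.49 CPM in the other controls. Gata3 was at 18.2 CPM (9 counts) in high intensity 5, against at most 6.26 in the rest of the group. Sim1 was at 29.3 CPM (18 counts) in static array 3, where the others had 1.68 to 4.25. Lhx1 was at 61.6 CPM (15 counts) in high intensity 4, where the others had 2.74 to 13.7. Of these 7 values, 4 are from libraries with under 1000000 protein-coding counts.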

How the results depend on the processing

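The count of members called was 0 in each of the 6 comparisons under each alternative and with each library left out. Of 471 log2 fold changes of 48 member differences under 10 alternatives, 66 had the opposite sign, none past the threshold, and of 592 with 1 library left out, 41 did. For 24 of the 48 differences, among them Gata2 at high intensity against control, the sign never turned. The smallest adjusted p of a member in any fit was 0.109, for Pax2 on the static array against control with limma-voom. Same-numbered samples of different groups had correlations of their deviations between -0.22 and 0.25, and 4 of 26 pairs were above 0.1. These values include the shallow libraries and counting error, so they neither show nor exclude that the numbers pair the samples. With the replicate number as a block, 0 members were called. The cause of the turned signs was not tested. All turned values are given next as log2 fold changes.

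In the deeper libraries, actuated against static array gave 0.12 for Pax2, 0.021 for Sim1 and 0.074 for Lhx1. For high intensity against control it gave -0.34 for Gata3 and -0.67 for Lhx1. For high against low intensity it gave -0.060 for Gata3 and -0.051 for Lhx5. For static array against control it gave -0.19 for Gata3, -0.67 for Sim1 and -0.39 for Lhx5. For the actuation difference minus the high-intensity difference it gave 0.095 for Pax2, 0.74 for Lhx1, 0.23 for Lhx5 and 0.064 for Tal1. With limma-voom and quality weights, actuated against static array gave 0.13 for Pax2. For high intensity against control it gave -0.081 for Pax2 and -0.74 for Lhx1. For low intensity against control it gave 0.46 for Gata3 and 0.089 for Lhx5. For high against low intensity it gave -0.18 for Gata3 and -0.25 for Lhx5. For static array against control it gave -0.42 for Sim1 and -0.11 for Lhx5. For the actuation difference minus the high-intensity difference it gave 0.21 for Pax2, 0.71 for Lhx1 and 0.13 for Lhx5. With limma on log2(TPM + 1), both with and without a filter, actuated against static array gave 0.058 for Lhx1. For high intensity against control it gave -0.044 for Gata3, 0.17 for Lhx5 and 0.44 for Tal1. For low intensity against control it gave 0.27 for Gata3, 0.067 for Sim1 and 0.23 for Lhx5. For high against low intensity it gave -0.32 for Gata3 and -0.054 for Lhx5. For static array against control it gave 0.38 for Pax2. For the actuation difference minus the high-intensity difference it gave -0.26 for Sim1. With limma on log2(TPM + 0.1), actuated against static array gave 0.12 for Lhx1. For high intensity against control it gave 0.30 for Lhx5 and 1.03 for Tal1. For low intensity against control it gave 0.50 for Gata3, 0.14 for Sim1 and 0.35 for Lhx5. For high against low intensity it gave -0.27 for Gata3 and -0.045 for Lhx5. For static array against control it gave 0.44 for Pax2 and 0.19 for Lhx1. With the DESeq2 Wald test, the differences were -0.035 for En1 in actuated against static array, 0.000414 for Lhx5 in high intensity against control, 0.066 for Gata3 in low intensity against control and -0.30 for Sim1 in the actuation difference minus the high-intensity difference. With DESeq2 size factors in edgeR, the differences were -0.044 for En1 in actuated against static array, 0.041 for Lhx5 in high intensity against control and -0.24 for Sim1 in the actuation difference minus the high-intensity difference. With the replicate number as a block, the differences were 0.051 for Gata3 in low intensity against control.

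Leaving out each library in turn, actuated against static array ranged from -0.49 to 0.11 for Pax2, from -0.032 to 0.19 for En1, from -1.88 to 0.021 for Sim1 and from -0.39 to 0.081 for Lhx1. The range in high intensity against control was from -0.093 to 0.14 for Pax2, from -0.36 to 0.74 for Gata3, from -0.45 to 0.47 for Lhx1, from -0.38 to 0.39 for Lhx5 and from -0.66 to 0.0042 for Tal1. The range in low intensity against control was from -0.40 to 0.27 for Gata3 and from -0.35 to 0.28 for Lhx5. The range in high against low intensity was from -0.19 to 0.75 for Gata3 and from -0.18 to 0.33 for Lhx5. The range in static array against control was from -0.023 to 0.93 for Gata3, from -0.50 to 1.40 for Sim1 and from -0.23 to 0.56 for Lhx5. The range in the actuation difference minus the high-intensity difference was from -0.54 to 0.066 for Pax2, from -0.20 to 1.73 for Sim1, from -0.66 to 0.38 for Lhx1 and from -0.58 to 0.088 for Tal1. Over all genes, the number called moved by more than 1.5 times in some settings. High intensity against control gave 6 genes in the first fit, 68 in the deeper libraries, 99 with the DESeq2 Wald test and 220 without the low-count filter. With limma-voom, or with only the groups compared, that comparison gave 0. Actuated against static array gave 0 genes in the first fit, 22 with the DESeq2 Wald test and 1137 without the filter. For the interaction term these numbers were 0, 94 and 3193. The fit without the filter covered 40504 genes. Depth limits what could be seen: the members held 0 to 597 counts per library.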
